A study of Bos taurus with 12 samples.

Results

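The change in plasma extracellular vesicle (EV) miRNAs between an unstimulated (U) and a superstimulated (S) estrous cycle was examined in the 3 heifers with a high (H) ovarian response, as SH vs. UH. The comparison used 6 of the 12 libraries of the series, 1 for each H heifer and cycle, and a shared number in the library names was taken as the same heifer. Of 783 bovine miRNAs listed, 212 were detected in 2 or 3 libraries of UH or of SH and were tested. The animals were Charolais- or Limousin-cross beef heifers of breeding age, all synchronised with a progesterone device, gonadorelin and prostaglandin F2α. The UH plasma was taken on Day 7 of the cycle that followed. The SH plasma was taken on Day 7 of the next cycle, after decreasing doses of FSH given over several days, further prostaglandin F2α and artificial insemination. The H heifers were chosen by their number of corpora lutea in the S cycle. The U cycle always came first, so FSH, the other treatments, the larger luteal mass and the order of the cycles cannot be told apart.

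EVs are membrane-bound particles that most cells release, and plasma EVs carry miRNAs from blood cells, vessel walls and organs. A miRNA is a short RNA that guides a protein complex to messenger RNAs, which it finds largely through its seed, bases 2 to 8 from the 5′ end. miRNAs with the same seed form a family with overlapping targets, and miRNAs of a cluster are cut from neighbouring or shared transcripts. Blood plasma is a mixture, so more EVs of a cell type and more of a miRNA per EV cannot be told apart here.

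The known miRNA reads were 30289, 74057 and 52304 in UH1, UH2 and UH3 and 38688, 21466 and 77433 in SH1, SH2 and SH3. SH2 was the smallest of all libraries, and 3 reads, taken as the limit of detection, stood for 6.03 normalised reads there against 1.81 in SH3. Normalised reads are reads scaled by library size and TMM factor to the mean depth of the 12 libraries. The endothelial miR-126-3p and the leukocyte miR-223 were abundant in all 6 libraries, but other miRNAs of blood and vessel cells were scarce. The red cell miR-451 had 12.1 to 43.4 normalised reads, miR-144 at most 4.0 and the endothelial miR-222 at most 5.4. The limits cover counting error only.

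The mature sequences below, as given in the deposited table with T for U, belong to the families on which the results turn, and capitals mark the seed. The let-7 members are shown since let-7c differed from its closest relatives by single bases and yet gave other values.
let-7a-5p: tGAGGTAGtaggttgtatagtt
let-7b: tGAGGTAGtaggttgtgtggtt
let-7c: tGAGGTAGtaggttgtatggtt
With positions counted from the 5′ end and the base of the first-named miRNA first, let-7a-5p and let-7c differed by A19G, and let-7b and let-7c by G17A.

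The pair of miR-196 miRNAs, encoded among the HOX genes that pattern the body axis, had the highest paired changes.
miR-196a: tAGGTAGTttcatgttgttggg
miR-196b: tAGGTAGTttcctgttgttggga
They share their seed and differed by A12C and the length of the 3′ end. The miR-199 miRNAs, typical of fibroblasts and smooth muscle, come from both arms of their hairpins.
miR-199a-3p: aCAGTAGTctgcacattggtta
miR-199c: tACAGTAGtctgcacattgg
miR-199a-5p: cCCAGTGTtcagactacctgtt
miR-199b: cCCAGTGTttagactatctgttc
miR-199a-3p and miR-199c share a run of 19 bases that starts at base 1 of the former and base 2 of the latter, so their reads may have been split in counting and the value of each is uncertain. miR-126, the miRNA of endothelial cells, was measured by both arms.
miR-126-3p: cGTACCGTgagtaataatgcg
miR-126-5p: cATTATTActtttggtacgcg
The last set is the family of miR-17, which carries a seed known from the cell cycle-related miR-17-92 cluster and its paralogs.
miR-17-5p: cAAAGTGCttacagtgcaggtagt
miR-20a: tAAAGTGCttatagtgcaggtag
miR-20b: cAAAGTGCtcacagtgcaggta
miR-106b: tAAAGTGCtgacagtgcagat
miR-93: cAAAGTGCtgttcgtgcaggta

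In the paired comparison, 15 miRNAs passed an absolute log2 fold change of 1 and an unadjusted P of 0.05, the thresholds of the study, which is 7.08% of the 212 tested. Of these, 6 (2.83%) were higher in SH (miR-196a, miR-196b, miR-199a-3p, let-7c, miR-379 and miR-877). The other 9 (4.25%) were lower (miR-126-3p, miR-126-5p, miR-1468, miR-139, miR-151-5p, miR-17-5p, miR-454, miR-769 and miR-2285p). After Benjamini-Hochberg adjustment over all miRNAs tested, 0 had a P under 0.05 in limma, and the lowest adjusted P was 0.0521, for miR-196a. At an unadjusted P of at most 0.05 there were 18 miRNAs, whatever their fold change. The median change of all 212 was -0.14 on the log2 scale. All fold changes here are on the scale of log2(normalised reads + 1), SH minus UH, with the heifer as a block, and for miRNAs with few reads this scale gives too small a change.

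**Figure D1:**
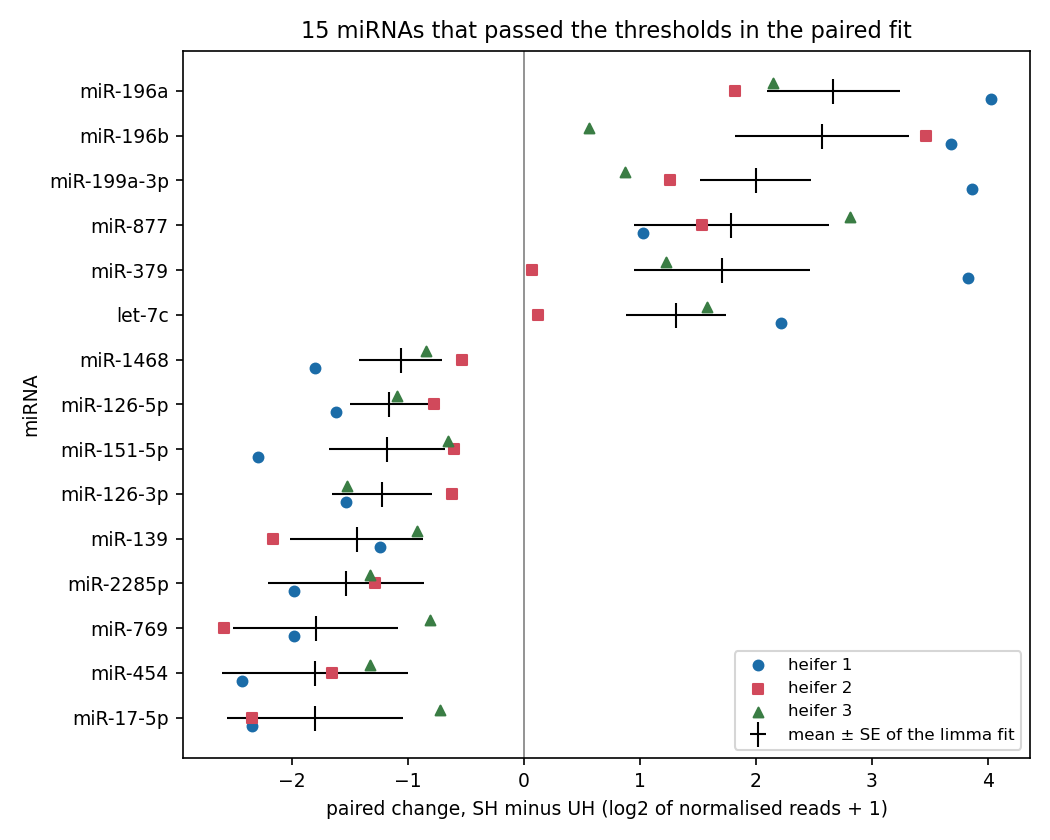
Paired log2 change (SH minus UH) of the 15 miRNAs that passed the thresholds, with 1 marker for each heifer and the mean ± SE of the limma fit as a vertical tick and a bar. All 15 moved in the same direction in the 3 heifers, which a call in the paired fit favours, so it is not separate evidence. Heifer 2 lay near 0 for let-7c (0.12) and miR-379 (0.07).

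miR-196a, a HOX-encoded miRNA, had 10.3, 5.0 and 11.3 normalised reads in UH1, UH2 and UH3 and 182.6, 20.1 and 53.6 in SH1, SH2 and SH3. The groups did not overlap, and every SH library was above every UH library. The mean rose from 8.8 ± 3.4 to 85.4 ± 85.8 (SD, n = 3), with a log2 fold change of 2.67 ± 0.57 (SE). miR-196b had 4.4, 0.0 and 21.8 normalised reads in UH and 68.5, 10.0 and 32.5 in SH. It was higher in SH of each heifer, but UH3 lay above SH2, and the log2 fold change was 2.57 ± 0.75 (adjusted P = 0.208). Reads of miR-196a were few in UH, with 7, 7 and 15, as against 136, 10 and 89 in SH. The other HOX-encoded miRNAs measured did not pass the thresholds. miR-10b, with 293.7, 371.4 and 199.3 normalised reads in UH and 231.0, 198.9 and 121.1 in SH, was lower in all 3 heifers (-0.65 ± 0.34), and miR-10a had a log2 fold change of -0.30 ± 0.37. The 4 members thus gave 2 calls higher and 0 lower, where 2.83% of all miRNAs tested were called higher. The summed reads of the list changed by 0.38, -0.63 and -0.11 in heifers 1, 2 and 3.

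**Figure D2:**
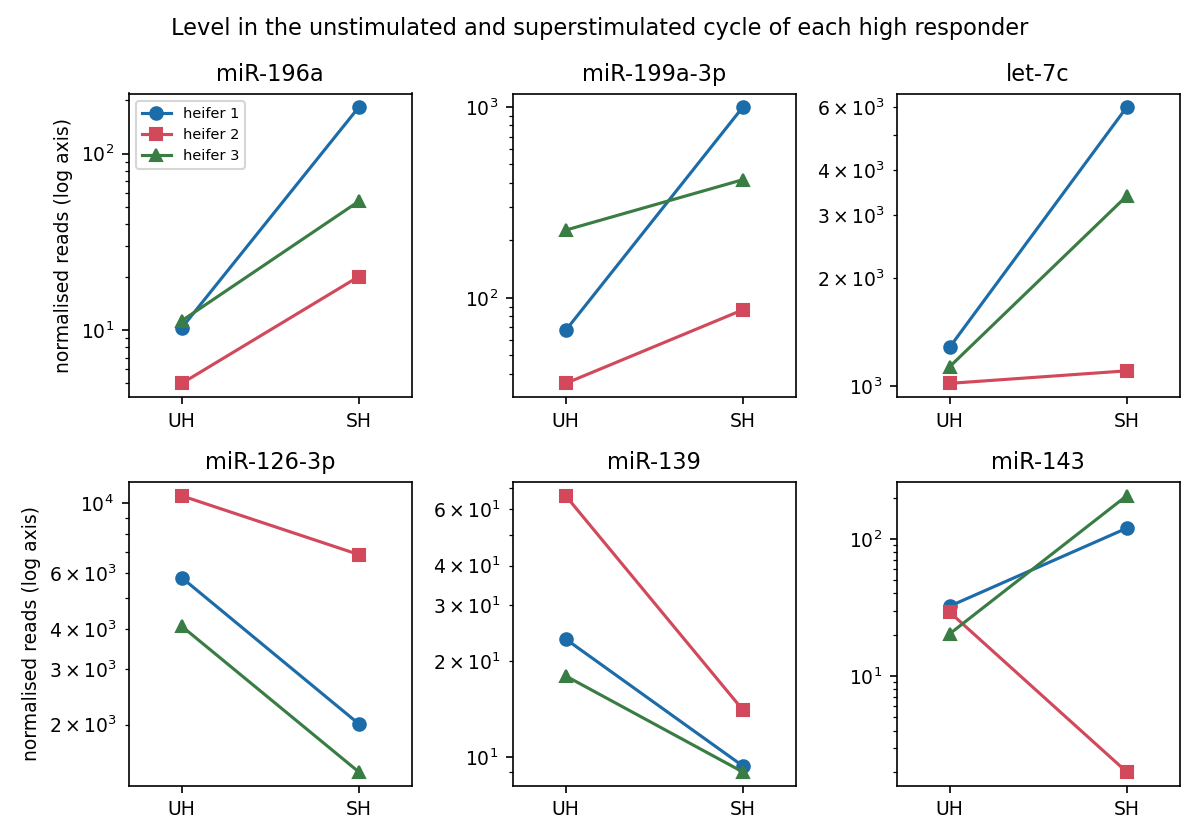
Normalised reads (log axis) of 6 miRNAs in the unstimulated (UH) and superstimulated (SH) library of each H heifer, with a line for each heifer. miR-196a and miR-199a-3p were higher and miR-126-3p and miR-139 lower in SH of every heifer, whereas miR-143 went to 2.0 in SH2 and to 119.5 and 206.0 in SH1 and SH3.

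Of the 7 miRNAs listed for mesenchymal and smooth muscle cells, all were tested, 1 was called higher and 0 lower, where 2.83% of all miRNAs tested were called higher. The median log2 fold change of the 7 was 0.84, with 5 positive and 2 negative. miR-199a-3p had 67.5, 35.6 and 226.3 normalised reads in UH and 996.3, 86.4 and 415.7 in SH. It was higher in SH of each heifer, by 3.86, 1.26 and 0.87 on the log2 scale, although UH3 lay above SH2. The log2 fold change was 2.0 ± 0.48 (adjusted P = 0.073). Its other arm, miR-199a-5p, had 1.5, 1.4 and 5.3 normalised reads in UH and 51.0, 0.0 and 22.3 in SH. It was thus higher in 2 heifers and without a read in SH2, and its log2 fold change of 1.67 ± 1.0 did not pass. miR-199b, with the seed of miR-199a-5p, had paired changes of 2.96, -1.28 and 0.83. miR-143 and miR-145, a pair cut from a single transcript of smooth muscle, parted between heifers. miR-143 changed by 1.86, -3.33 and 3.28 in heifers 1, 2 and 3, and miR-145 by -1.30, -2.81 and 2.23, so that both were lower in SH2 and higher in SH3. The summed reads of the list were 127.7, 105.3 and 290.2 in UH and 1268.9, 94.4 and 760.9 in SH, which is a change of 3.30, -0.16 and 1.39.

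Endothelial miR-126 was lower in SH. miR-126-3p had 5814.3, 10535.5 and 4086.6 normalised reads in UH and 2012.8, 6877.7 and 1419.9 in SH. Each heifer had less in its S cycle, with paired changes of -1.53, -0.62 and -1.52, while the groups overlapped, since SH2 exceeded UH1 and UH3. The mean decreased from 6812.1 ± 3338.3 to 3436.8 ± 2994.6 (SD, n = 3), and the log2 fold change was -1.22 ± 0.43 (adjusted P = 0.372). miR-126-5p followed with 709.2, 1344.0 and 569.2 in UH and 229.6, 787.6 and 266.3 in SH (-1.16 ± 0.34, adjusted P = 0.208). Both arms come from the same hairpin, so they are not separate evidence. The ratio of reads of the 3p to the 5p arm was 7.18 to 8.20 in UH and 5.33 to 8.77 in SH. miR-221 and miR-222, which are also found in vessel walls, had changes of 0.24 ± 0.42 and 0.40 ± 0.84. Of the 4 endothelial miRNAs tested, 2 were called lower, the 2 arms of this hairpin, and 0 higher, where 4.25% of all miRNAs tested were called lower.

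Of the 3 red cell miRNAs, 0 passed the thresholds, and miR-486 and miR-451 had higher values in SH of each heifer. miR-486 had 1488.8, 1108.5 and 2712.8 normalised reads in UH and 1726.8, 2230.3 and 8318.2 in SH. Its log2 fold change of 0.95 ± 0.41 (adjusted P = 0.519) was just short of 1. miR-451, the main miRNA of red cells, changed by 1.17, 0.54 and 0.12, with 12.1 to 39.9 normalised reads in UH and 18.1 to 43.4 in SH. miR-144, its cluster partner, had at most 5 reads in any of the 6 libraries and paired changes of -1.30, 1.55 and -1.57. The log2 ratio of miR-451 to miR-23a, a measure of lysed red cells, was -1.24, -3.51 and -0.99 in UH and -0.64, -1.82 and -1.10 in SH. It moved up in heifers 1 and 2 and slightly down in heifer 3, and its part in the other results was not tested.

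The 8 leukocyte miRNAs had a median log2 fold change of 0.08 with 0 calls, and their summed reads changed by -0.66, 0.66 and -0.13. miR-150, a miRNA of lymphocytes, had 1744.3, 880.1 and 822.6 normalised reads in UH and 690.2, 1705.9 and 722.3 in SH. miR-223, a miRNA of myeloid cells, had 806.1, 501.6 and 934.6 in UH and 768.1, 610.8 and 861.5 in SH (0.03 ± 0.34). The directions differed between heifers for each of the 8.

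Striated muscle, epithelium and the list for liver, gut and endocrine cells each had 0 calls. Muscle miR-1 had 91.0, 21.3 and 44.4 normalised reads in UH and 51.0, 100.5 and 25.9 in SH, and miR-133a 48.5, 14.9 and 24.1 in UH and 61.8, 54.2 and 30.1 in SH. Both were highest against their own U cycle in heifer 2, by 2.18 and 1.79. Liver miR-122 had 91.0, 641.0 and 121.8 in UH and 63.1, 48.2 and 327.1 in SH, so it was lower in SH2 (-3.71 on the log2 scale) and higher in SH3 (1.42). Of the epithelial miRNAs, miR-205 changed by 0.03 ± 0.58 and the miR-200 members had at most 12.1 normalised reads. miR-375, an endocrine and gut miRNA, was lower in all 3 heifers, with 25.0, 34.2 and 17.3 in UH and 4.0, 22.1 and 10.2 in SH (-1.23 ± 0.62, adjusted P = 0.599).

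miRNAs known from the follicle and the corpus luteum were sparse. Of 13 listed, 6 had a read in the 6 libraries and 4 were tested, with 0 calls and a median log2 fold change of 0.07. miR-224, which acts in granulosa cells, had 1.5, 2.1 and 6.0 normalised reads in UH and 5.4, 6.0 and 25.9 in SH. It was higher in SH of each heifer, and the log2 fold change of 1.49 ± 0.80 (adjusted P = 0.643) did not pass. miR-21-5p, abundant in luteal tissue and in many other cells, changed by 0.96, -0.11 and -1.03, and miR-378 by 0.77, 0.29 and -0.48. miR-34a had 1.5, 1.4 and 3.0 normalised reads in UH and 0.0, 0.0 and 3.0 in SH, all at or near the limit of detection.

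**Figure D3:**
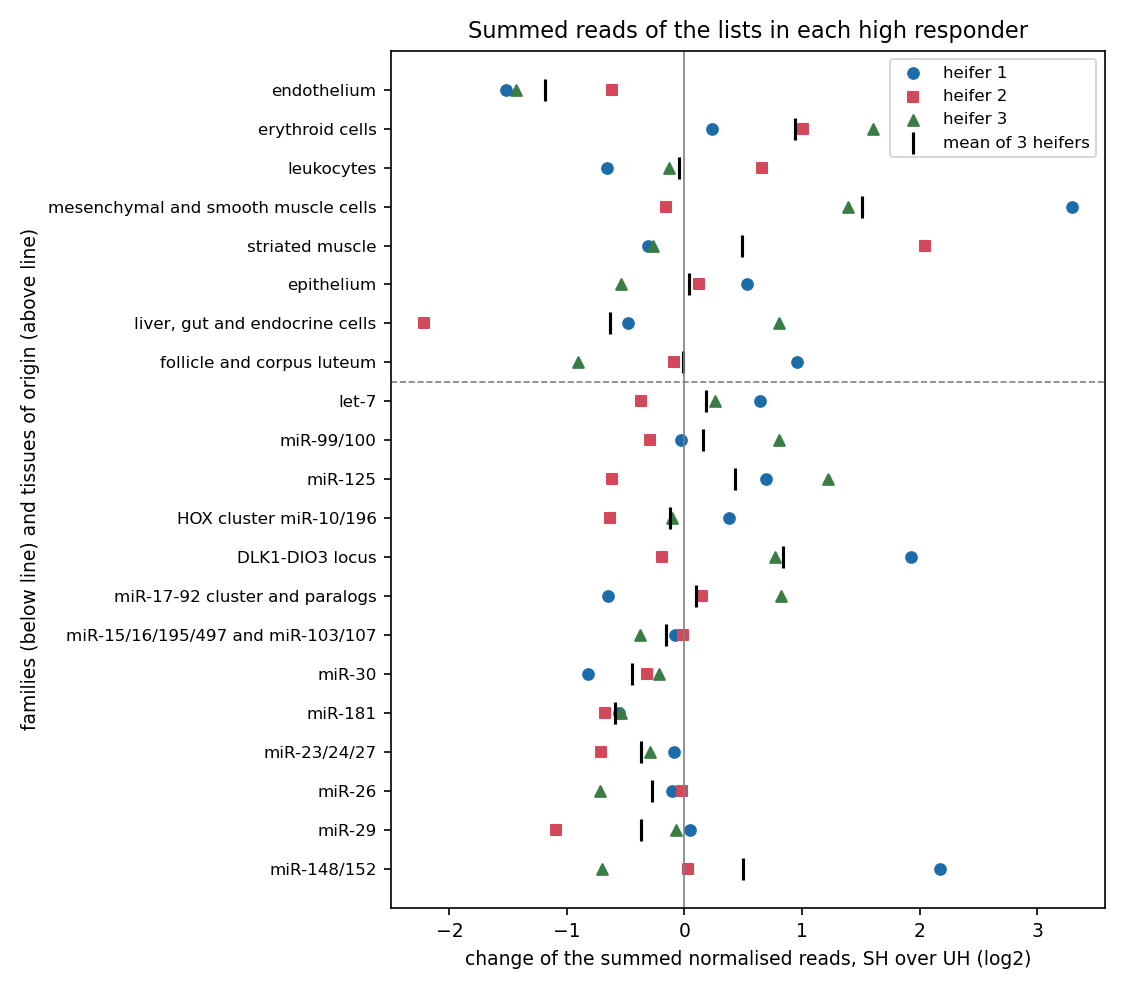
Log2 change of the summed normalised reads of each list (SH over UH) in the 3 H heifers, with the tissues of origin above and the families under the dashed line and a tick for the mean. The endothelial sum was lower (-1.52, -0.62 and -1.43) and the erythroid sum higher (0.23, 1.01 and 1.60) in every heifer. Nearly all reads of the former are miR-126 and of the latter miR-486, so these sums do not stand for the whole lists. The fitted changes of miR-221 (0.24), miR-222 (0.40) and miR-144 (-0.44) went the other way. The mesenchymal sum ran from -0.16 to 3.30.

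let-7, a family known for its part in development and differentiation, shares the seed GAGGTAG in all 9 members tested. Its summed reads were 20940.3, 23913.4 and 16472.5 in UH and 32620.3, 18551.4 and 19712.9 in SH, a change of 0.64, -0.37 and 0.26. Only let-7c passed the thresholds among the 9. It had 1281.8, 1016.0 and 1130.9 normalised reads in UH and 5986.1, 1101.1 and 3384.4 in SH. The increase was large in heifers 1 and 3 and 0.12 on the log2 scale in heifer 2, SH2 lay within the range of UH, and the log2 fold change was 1.31 ± 0.43 (adjusted P = 0.343). let-7a-5p changed by 0.26, -0.50 and -0.25 and let-7b by 0.58, -0.35 and 0.44. As a ratio of reads within a library, which no scaling alters, let-7c over let-7a-5p was 0.227, 0.148 and 0.253 in UH and 0.885, 0.228 and 0.902 in SH. The ratio was higher in SH of each heifer, and in SH2 it stayed within the range of UH. let-7f had a log2 fold change of -0.43 ± 0.38.

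In the RefSeq annotation (assembly ARS-UCD2.0, not the build used by the authors), let-7c neighbours miR-99a and a copy of miR-125b, and let-7e neighbours miR-99b and miR-125a. The members of the first cluster had paired changes of 2.22, 0.12 and 1.58 (let-7c), 0.80, -0.45 and 0.83 (miR-99a-5p) and 1.38, -0.46 and 1.57 (miR-125b). All 3 were higher in SH of heifers 1 and 3, and 1 of 3 in heifer 2. The members of the second cluster had 0.47, -0.75 and 0.42 (let-7e), -1.14, -0.09 and 0.68 (miR-99b) and -0.56, -0.71 and 0.45 (miR-125a). miR-125b, which regulates differentiation in many tissues, was steady in UH with 437.5, 463.9 and 459.4 normalised reads and had 1140.0, 337.6 and 1362.1 in SH. Its log2 fold change of 0.83 ± 0.41 did not pass. Reads of miR-125b cannot be assigned to a copy of its gene.

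Of 49 miRNAs listed for the imprinted DLK1-DIO3 locus, which encodes a large miRNA cluster and is active in placenta, muscle and brain, 16 had a read and 11 were tested. Of these, 1 was called higher and 0 lower, where 2.83% of all miRNAs tested were called higher. The fitted change was positive for 7 of the 11 and negative for 4. miR-379 had 2.9, 5.7 and 12 normalised reads in UH and 55.1, 6.0 and 29.5 in SH (1.71 ± 0.76, adjusted P = 0.519), and the increase in heifer 2 was 0.07. miR-382 had higher values in every SH library (16.1, 12.1 and 9.6) than in any UH library (2.9, 8.5 and 5.3), but did not pass (adjusted P = 0.721). miR-432 and miR-127 changed by 0.36 ± 0.49 and 0.32 ± 0.53. The median over the 11 was 0.36, and 0.00 with miR-487b and miR-411c-5p, which had no read in UH, set to the bound that 3 reads allow.

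The miR-17-92 cluster and its paralogs were low in these EVs apart from miR-92a, miR-93 and miR-25. Of 15 listed, 9 were tested, 1 was called lower and 0 higher, where 4.25% of all miRNAs tested were called lower. The fitted change was negative for 8 of the 9 and positive for 1. miR-17-5p, which targets cell cycle inhibitors, had 17.6, 14.2 and 13.5 normalised reads in UH and 2.7, 2.0 and 7.8 in SH. The groups did not overlap, and the log2 fold change was -1.80 ± 0.76 (adjusted P = 0.519), on 12, 20 and 18 reads in UH and 2, 1 and 13 in SH. The 5 miRNAs with the seed AAAGTGC had fitted values from -1.80 (miR-17-5p) to -0.14 (miR-93), with a median of -1.38, or -0.27 with miR-20b, which had no read in SH, set to its bound. Their summed reads changed by -0.88, -0.14 and 0.01 in heifers 1, 2 and 3, and those of the whole list by -0.65, 0.15 and 0.82, so neither sum was lower in every heifer. miR-106b, on few reads, was higher in heifer 3 (1.77). miR-93, the member with the most reads, had 108.7, 105.3 and 175.2 normalised reads in UH and 75.2, 108.5 and 181.3 in SH. The median over the 9 miRNAs of the list was -0.99, but -0.27 with miR-19a and miR-20b, which had no read in SH, set to their bound. miR-454, with the seed AGTGCAA of the miR-130 family, had 4.4, 2.1 and 7.5 normalised reads in UH and 0.0, 0.0 and 2.4 in SH (-1.80 ± 0.80, adjusted P = 0.519).

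Across the tested miRNAs, 29 seeds were shared by at least 2 miRNAs, 82 miRNAs in all. In 13 of these seed families all members had the same sign, 4 families had at least 1 call, and in 1 family, miR-196a and miR-196b, every member was called. Many of the families had only 2 members, for which a shared sign often arises by chance, and the number of 13 was not tested. Families were also listed by name, and such a list can hold more than 1 seed. The lists of miR-181, miR-23/24/27, miR-30 and miR-26 and that with miR-16b and miR-103 had 0 calls. Their summed reads were lower in SH of all heifers, with log2 changes of -0.68 to -0.54 for miR-181 and -0.71 to -0.09 for miR-23/24/27. The ranges were -0.82 to -0.22 for miR-30, -0.72 to -0.02 for miR-26 and -0.38 to -0.01 for the last. Every other family list had a higher sum in at least 1 heifer. Within miR-23/24/27, the sum of the miR-27 seed changed by 0.37, -0.51 and -0.21 in heifers 1, 2 and 3.

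The other miRNAs called lower belong to none of the lists. miR-139, known from endothelium and other tissues, had 23.5, 66.2 and 18 normalised reads in UH and 9.4, 14.1 and 9.0 in SH (-1.44 ± 0.57, adjusted P = 0.503), without overlap. miR-151-5p had 49.9, 46.2 and 45.1 in UH and 9.4, 30.1 and 28.3 in SH (-1.18 ± 0.50, adjusted P = 0.519), also without overlap. miR-1468 had 619.6 and 1360.3 in UH1 and UH2, less than either in UH3, and 177.2, 942.3 and 277.7 in SH, with paired changes of -1.80, -0.53 and -0.84 (-1.06 ± 0.36, adjusted P = 0.343). The remaining calls rested on few reads. miR-769 had 2, 7 and 1 reads and miR-2285p 2, 2 and 2 reads in UH, and both had 0 in every SH library, so that no fold can be given. miR-877 was covered by 1, 2 and 0 reads in the UH libraries and by 3, 3 and 10 in the SH libraries, which is at least 1.83-fold higher in SH than the limit of 3 reads per UH library. Just outside the fold threshold lay miR-486 (0.95) and miR-30a-5p (-0.93 ± 0.35), which was lower in all 3 heifers.

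Values of UH and SH libraries did not overlap for 16 of the 212 miRNAs (7.55%), 4 higher and 12 lower in SH. The direction was the same in all 3 heifers for 54 (25.5%), of which 21 were higher and 33 lower. Detection was lower in SH: 204 miRNAs had a read in at least 2 UH libraries and 171 in at least 2 SH libraries, with 163 in both. Of those, 16 had no read in any SH library and 3 none in any UH library, but they had at most 7 and 8 reads in a library. The SH group held the smallest library, and the share of this difference that came from depth was not tested.

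The 3 heifers differed in their response. The median absolute change was 0.92, 0.78 and 0.74 on the log2 scale in heifers 1, 2 and 3. Over the 103 miRNAs with a mean of at least 10 normalised reads, the Pearson correlation of the paired changes was 0.33 between heifers 1 and 3, 0.19 between heifers 1 and 2 and -0.14 between heifers 2 and 3. These are descriptions across miRNAs, which are not independent replicates and share the depth and scaling of the libraries. In heifer 2 the median change of these miRNAs was -0.38, as against -0.06 and 0.07 in heifers 1 and 3.

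**Figure D4:**
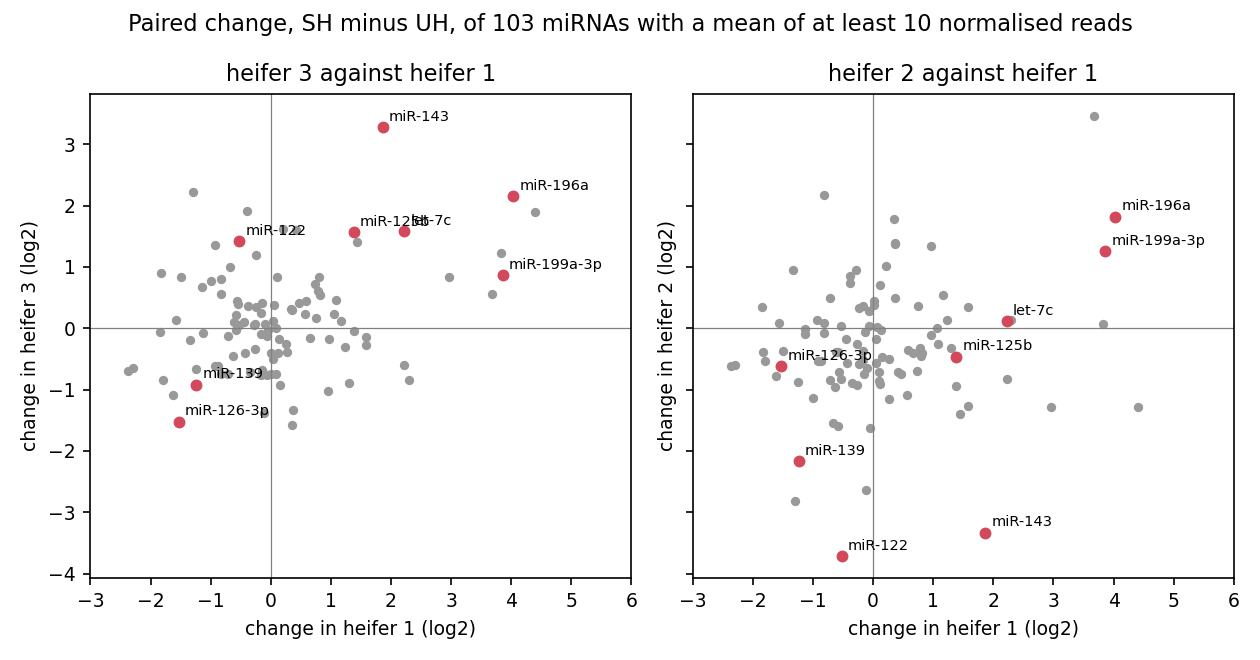
Paired log2 change (SH minus UH) of the 103 miRNAs with at least 10 normalised reads on average in heifer 3 (left) and heifer 2 (right) against heifer 1, each point a miRNA. miR-143 was higher in heifers 1 and 3 (1.86 and 3.28) and lower in heifer 2 (-3.33), and miR-196a was higher in all.

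Leaving out heifer 2, and with it SH2, gave 13 calls (6.13%) in the paired fit, 9 higher and 4 lower, of which 7 were among the 15. The lowest adjusted P was 0.200. The added calls were miR-125b, miR-143, miR-199a-5p, miR-199b and miR-660 (higher) and miR-335 (lower). The 7 calls in common were miR-196a, miR-199a-3p, let-7c, miR-379, miR-126-3p, miR-126-5p and miR-1468. miR-196b, miR-139, miR-151-5p, miR-17-5p, miR-454, miR-769, miR-877 and miR-2285p lost their call. Without the block and without SH2 alone, 24 miRNAs (11.3%) passed, 14 higher and 10 lower, and 12 (5.66%) had an adjusted P under 0.05. These 12 were miR-199a-3p (2.96), miR-196a (3.41), miR-143 (2.51), miR-196b (3.28), let-7c (1.98), miR-1468 (-1.75), miR-126-5p (-1.72), miR-199a-5p (3.38), miR-126-3p (-1.90), miR-199b (2.65), miR-379 (2.56) and miR-125b (1.46), with the log2 fold change in brackets. In that fit limma set the same spread for all miRNAs of a given level. Without the mean-variance trend, 0 of them had an adjusted P under 0.05, and the lowest was 0.0685, with 28 calls at the unadjusted thresholds. In SH2, miR-143 had 2.0 normalised reads and miR-199a-5p and miR-199b 0.0, all under the limit of 6.03 in that library. In UH2, miR-143 had 29.2, well above both limits, whereas miR-199a-5p and miR-199b had 1.4 each, under the limit of 2.13 there.

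Other heifers and libraries also moved the count. The number of calls was 19 without heifer 1, of which 5 were among the 15, and 8 without heifer 3, of which 6 were among the 15. Only miR-196a and miR-199a-3p were called whichever heifer was left out. Without the block there were 12 calls, of which 11 were among the 15, and this number was 6 without UH2, 6 without SH1, 11 without UH1, 11 without UH3 and 16 without SH3. The heifers stand for separate animals, and with 3 pairs an exact paired permutation test cannot go under 0.25, so no P is given for the summed lists.

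The same change was then compared with that of the 3 low (L) responders as (SH minus UH) minus (SL minus UL). At the same thresholds, 11 miRNAs (5.19%) differed, 3 higher and 8 lower, and 0 had an adjusted P under 0.05 (lowest 0.706, with 11 at an unadjusted P of 0.05). The count was 17 without heifer H2, 7 without heifer L1 and 21 without SH2 and without the block. Of the 15 miRNAs called in SH vs. UH, 6 were among the 11. The difference contains the same SH and UH values that gave the 15 calls, so this overlap is not separate evidence. miR-126-3p changed by -0.23, -0.15 and -0.24 in the L heifers and the difference was -1.02 ± 0.40. miR-126-5p changed by -0.05, 0.05 and -0.44 (difference -1.01 ± 0.36). miR-139 changed by 0.46, 0.33 and 0.50 in the L heifers (difference -1.87 ± 0.61), and miR-17-5p by 0.31, 0.35 and 0.49 (difference -2.18 ± 0.84). For the miRNAs called higher in SH, the difference did not pass. miR-196a changed by 2.10, -1.26 and 2.72 in the L heifers (difference 1.48), miR-199a-3p by 2.37, -0.15 and 1.15 (difference 0.88) and let-7c by 1.24, -0.38 and 1.10 (difference 0.66).

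**Figure D5:**
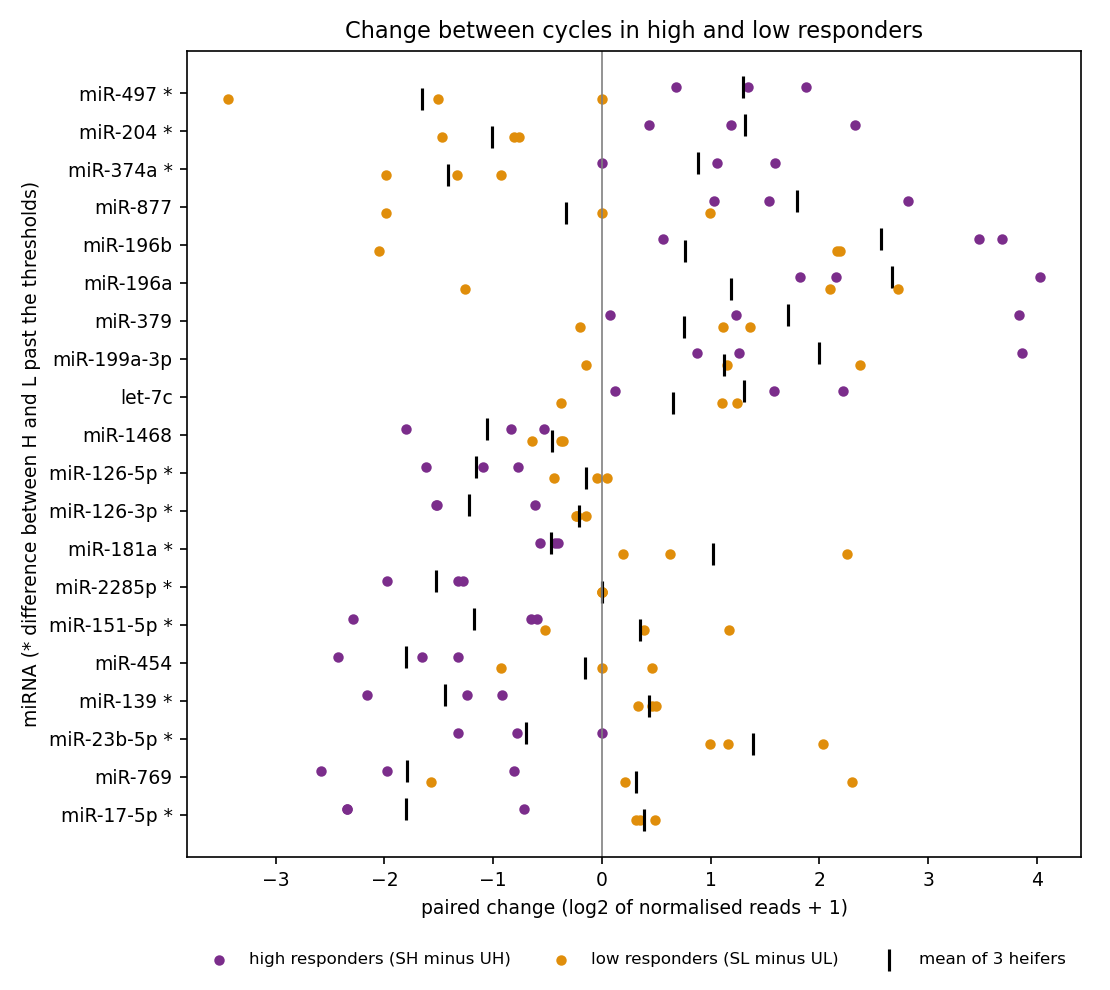
Paired log2 change between cycles in the 3 H (SH minus UH) and 3 L heifers (SL minus UL) for the miRNAs called in either comparison, each point a heifer and each tick a mean. Both arms of miR-126 lay between -0.44 and 0.05 in the L heifers and between -1.62 and -0.62 in the H heifers, and the sets overlapped for miR-196a, miR-199a-3p and let-7c.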

How the data were processed

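Small RNA was sequenced from EVs of EDTA plasma. The authors isolated RNA with an exoRNeasy kit, made libraries with UMIs, used Cutadapt for trimming and collapsing, aligned to UMD3.1 (Bowtie2 2.2.2 in the submitters' processing notes) and annotated perfect matches with miRBase. The deposited values are a score made by the authors from read counts, tags scaled to mapped reads and cut to whole numbers. Reads were calculated back from the step of each library, and 0 of 2365 values were not reproduced. The step was chosen so that every value is reproduced, so this number is not a separate check of the reads. The number of unused columns was 0.

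TMM factors were computed over 12 libraries, and limma 3.58.1 (R 4.3.3; lmFit, eBayes with trend, two-sided) was fitted to log2(normalised reads + 1) of the 6 H libraries with the heifer as a block. Tested were miRNAs with a read in 2 or more libraries of a group. Calls needed an absolute log2 fold change of 1 or more and an unadjusted P of 0.05 or less. The fit was tested on simulated data. The authors used edgeR, which needs raw counts and was not run on this score. The paper also lists raw read counts in a supplementary table, and these were not used here.

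Pairing rests on the study's sampling of each heifer in both cycles and on the shared number. Deviations from the group means correlated by 0.05, 0.23 and 0.11 for heifers 1, 2 and 3 over 212 miRNAs. Between libraries of different heifers the values ran from -0.24 to 0.15 (0.15 for UH3 and SH1). Over the 103 miRNAs with a mean of at least 10 normalised reads they were 0.14, 0.36 and 0.31, against -0.47 to 0.27 between different heifers. Among these 103 each UH library correlated highest with the SH library of its own number, for UH1 by 0.14 against 0.13 with SH2. The ranges overlapped in both sets, so the values do not themselves show the pairing. All replicate pairs differed by more than sampling noise. P values rest on the spread between 3 heifers, which limma moved towards the spread of other miRNAs of a similar level. They are thus not a measure of the spread between heifers alone.

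The members, lists and tests were chosen with earlier results of these data known. Named are the called miRNAs, those with an adjusted P under 0.05 without heifer 2 or SH2, and up to 4 members of each tissue list and of 5 family lists with the highest mean. Others (further members of seed families and clusters, miR-30a-5p, miR-660, miR-335, miR-487b, miR-411c-5p and those in the closing section) were chosen after their values were seen. Alternatives were other scalings, filters, pseudocounts, no trend, voom, no block and leaving out heifers or libraries. Sequences are those of the deposited table, and RefSeq was used only for names and neighbours. Tables were made in Python 3.11.15 (pandas 2.3.3) and figures in matplotlib 3.10.9.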

Additional observations from a re-analysis of the deposited data

Results flagged for a closer look

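In the test of the difference between H and L heifers, 11 of the 212 miRNAs tested (5.19%) passed the thresholds. These were an absolute log2 value of 1 and an unadjusted P of 0.05, and the share passing is close to that P threshold itself. Of the 11, 0 had an adjusted P under 0.05 (limma, lowest 0.706), so no single difference is established. The difference, (SH minus UH) minus (SL minus UL) on the log2 scale, was negative for miR-139 (-1.87), miR-23b-5p (-2.09), miR-126-5p (-1.01), miR-17-5p (-2.18), miR-126-3p (-1.02), miR-2285p (-1.53), miR-151-5p (-1.53) and miR-181a (-1.49), and positive for miR-497 (2.95), miR-374a (2.30) and miR-204 (2.33). miR-181a, a miRNA of lymphocytes and many other cells, changed by -0.43, -0.57 and -0.40 in the H heifers and by 0.63, 0.19 and 2.25 in the L heifers. miR-497 changed by 1.88, 0.68 and 1.34 in H and by -1.51, 0.00 and -3.44 in L heifers, on at most 7.2 normalised reads in an H library. miR-204 changed by 2.33, 0.43 and 1.19 in H and by -0.76, -1.47 and -0.81 in L heifers. miR-23b-5p, miR-374a and miR-2285p had under 5 normalised reads in every H library.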

How the results depend on the processing

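The 15 calls of the paired fit became 12 with no replicate block (11 in common) and 9 with a minimum of 10 reads. They ranged from 6 to 24 when a heifer or a library was left out. Calls higher in SH numbered 6 and ranged from 1 to 14 in those fits, with 13 in voom. Calls lower in SH numbered 9 and ranged from 3 to 14, with 5 at a minimum of 10 reads. Without SH2, block and trend together, an alternative added after the data were seen, there were 28 calls, 16 of them higher. miRNAs with an adjusted P under 0.05 numbered 0, with a range of 0 to 12 when a heifer or library was left out, 2 with library sizes without TMM, 1 with median-of-ratios size factors, 3 with no filter and 2 with a pseudocount of 0.5. The 11 calls of the difference between H and L heifers ranged from 7 to 21. The 15 called miRNAs kept their direction in every fit that tested them. miR-143, 0.60 with all heifers, ranged from -0.74 to 2.57, and miR-199b, 0.84, from -0.48 to 2.65 when a heifer or library was left out. Of 38 miRNAs taken by the naming rule without a call, 23 changed sign in at least 1 fit. Apart from the smaller number of miRNAs tested at a minimum of 10 reads and of samples on leaving some out, the cause was not tested. In SH2, depth limits miRNAs under 6.03 normalised reads.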

Other observations

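Some abundant miRNAs moved in a single heifer and were chosen after their values were seen. miR-148a, a miRNA of liver and many secretory tissues, had 170.3, 145.9 and 340.6 normalised reads in UH and 840.6, 160.7 and 188.6 in SH, a rise of 2.30 on the log2 scale in heifer 1 with -0.85 in heifer 3. let-7i had 707.7, 491.6 and 806.8 in UH and 1665.1, 536.5 and 651.8 in SH. miR-25 had 261.3, 265.4 and 433.1 in UH and 221.6, 333.5 and 988.6 in SH, so it was highest in SH3.

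A further set of miRNAs was lower in SH of each heifer, without overlap of the groups, and short of the fold threshold. miR-24-3p had 136.5, 131.6 and 109.0 normalised reads in UH and 83.3, 72.3 and 65.1 in SH. miR-103, a miRNA of lipid metabolism, had 168.8, 192.1 and 195.5 in UH and 88.6, 132.6 and 126.5 in SH. miR-23b-3p had 57.3, 82.5 and 59.4 in UH and 30.9, 56.3 and 38.6 in SH. The background share of miRNAs without overlap was 7.55%, and the adjusted P values of these were 0.575, 0.599 and 0.712 in limma.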
